A study of Mus musculus with 4 samples.

Results

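The genes described here encode the proteins of the mitochondrial ribosome. They were taken as every gene of the deposited expression table whose symbol starts with Mrpl or Mrps followed by a number, without pseudogenes, which gave 77 of 16718 genes. Of these, 48 are Mrpl genes, named for the large subunit, and 29 are Mrps genes, named for the small subunit. The RefSeq annotation of GRCm38.p6 holds 78 protein-coding genes under the same rule, and the 1 further gene, Mrpl58, stands in the table under its older symbol Ict1. The 77 genes lie on 17 chromosomes, with 10 of them on chromosome 11.

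The study sequenced RNA of naive CD4+ T cells from mice after 4 hours of stimulation with an antibody to CD3, a component of the T cell receptor complex. Cells labelled Zfp281 cKO, a conditional knockout of a zinc finger transcription factor, were set against wild-type (WT) cells, and all cells of both genotypes had been stimulated. The labels name 2 cKO and 2 WT libraries. The Cre line and promoter behind the knockout, the age of the mice and whether a library came from 1 mouse or from pooled mice cannot be read from the labels. The table holds 1 value per gene and genotype, in FPKM (fragments counted per length of transcript and per depth of the library, a level per length), so the spread between libraries is unknown and no difference has a replicate check.

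The mitochondrial ribosome translates the few messenger RNAs made from mitochondrial DNA, all of which encode subunits of the oxidative phosphorylation complexes. Its own proteins are encoded in the nucleus, made on cytosolic ribosomes and imported, and are assembled there with ribosomal RNAs transcribed from mitochondrial DNA. In T cells, activation is known to increase mitochondrial mass and mitochondrial translation, which makes these genes part of the growth programme of a stimulated lymphocyte.

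An estimated 17435973 reads stood behind the cKO values and 17526345 behind the WT values, figures recovered from the deposited p-values and FPKM. The targeted gene, Zfp281, was at 0.44 FPKM in cKO cells and 66.3 FPKM in WT cells. Of 8 T cell markers, 5 were in the table, and all 5 (Cd3d, Cd3e, Cd3g, Cd4 and Cd5) were lower in cKO cells in the authors' deposited table, with a summed level of 1477 FPKM in cKO and 1794 FPKM in WT. Markers of B cells summed to 19.3 FPKM in cKO and 11.6 FPKM in WT, those of CD8 T cells to 18.3 and 11.8 FPKM in cKO and WT, and those of myeloid cells to 1.72 and 0.95 FPKM in cKO and WT. Those of NK cells summed to 0.13 FPKM in cKO and 0.09 FPKM in WT, and those of erythroid cells to 0.45 FPKM in cKO and 0.93 FPKM in WT. Most of the B cell sum came from the class II genes Cd74, at 11.9 FPKM in cKO and 7.63 FPKM in WT, and H2-Aa, at 3.88 FPKM in cKO and 1.57 FPKM in WT, which other antigen-presenting cells also express. Nearly all of the CD8 sum came from Cd8b1, at 17.8 FPKM in cKO and 11.5 FPKM in WT. These 3 genes and the myeloid marker Lyz2, at 1.09 FPKM in cKO and 0.22 FPKM in WT, were called higher in the authors' deposited table. The B cell marker Ms4a1 was at 0.25 FPKM in cKO and 0.14 FPKM in WT, and Cd8a at 0.47 FPKM in cKO and 0.28 FPKM in WT. The part of these shifts in the results below was not tested, and in bulk RNA fewer cells of a type and less RNA per cell cannot be told apart.

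All 77 genes were expressed at 1 FPKM or more in at least 1 genotype, the minimum set for counting calls, and 76 of them reached 5 FPKM. Levels ran between 3.62 and 92.2 FPKM in cKO cells, with a median of 20.6 FPKM, and between 4.61 and 85.2 FPKM in WT cells, with a median of 22.3 FPKM. In WT cells 34 genes lay between 20 and 40 FPKM, 23 between 10 and 20, 10 below 10 and 10 at 40 or more. Although the proteins enter the ribosome in mostly equal numbers, their messenger RNAs thus covered an 18.5-fold range in WT and a 25.5-fold range in cKO. The order of the genes was nearly the same in both genotypes, with a Spearman rho of 0.98 between their cKO and WT levels (n = 77 genes, described without a test).

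Mrpl24, a protein at the rim of the tunnel through which the new chain leaves the ribosome, had the highest mean level, 92.2 FPKM in cKO and 85.2 FPKM in WT. Mrpl52, a subunit with no bacterial counterpart, followed at 73.4 FPKM in cKO and 73.1 FPKM in WT. Mrpl30 was at 53.3 FPKM in cKO and 60.1 FPKM in WT, Mrpl12 at 48.2 FPKM in cKO and 61.6 FPKM in WT, and Mrps21 at 45.9 FPKM in cKO and 48.6 FPKM in WT. These 5 genes made up 17.8% of the summed level in cKO and 17.5% in WT, so no single gene carried the sum. At the low end stood genes with long transcripts. The 4 genes longer than 3000 bases in the table (Mrpl17, Mrps25, Mrpl19 and Mrpl35) had mean levels of at most 7.68 FPKM, and across the 77 genes length and mean level had a Spearman rho of -0.59. Each FPKM value is divided by that length, so the points share it. For Mrpl17 the annotated transcripts range from 1028 to 7300 bases, and the table uses 6712.

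**Figure D1:**
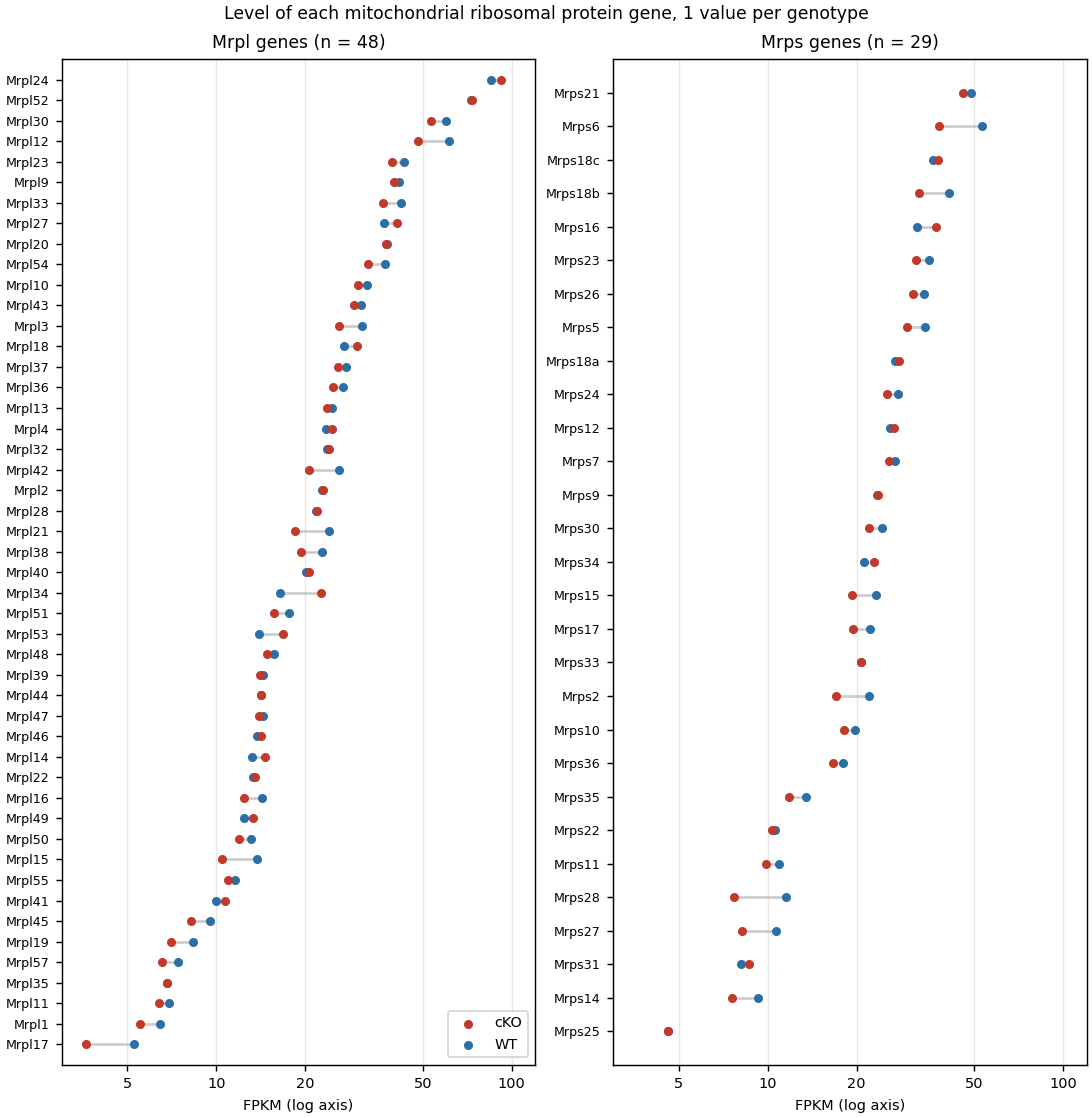
FPKM (log axis) of each of the 48 Mrpl and 29 Mrps genes in cKO (red) and WT (blue), 1 value per genotype, ordered by mean level. Levels run from Mrpl17 at 3.62 FPKM in cKO and 5.25 FPKM in WT to Mrpl24 at 92.2 FPKM in cKO and 85.2 FPKM in WT, and most cKO points lie slightly left of the WT points.

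Summed over the 77 genes, the level was 1762 FPKM in cKO and 1873 FPKM in WT, a ratio of 0.941, and 53 genes lay below WT and 24 above. The median change on the log2(FPKM + 1) scale, cKO minus WT, was -0.08 (quartiles -0.19 and 0.01), against 0.02 for all 10728 genes at 1 FPKM or more. The median ratio of the 77 genes was 0.943, and that of all these genes 1.01. No gene of the set changed 2-fold. The cKO level of 43 genes was within 10% of the WT level and that of 65 within 20%.

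A gene was called changed where the authors' deposited table gives it a false discovery rate (FDR) below 0.05. By this rule 15 of the 77 genes (19.5%) fell, 1 rose and 61 did not pass. Among all 10728 genes 16.9% were called lower and 19.9% higher. The share that fell was therefore near the background, while calls in the opposite direction came to 1.3% of the set. The 2 groups are not alike in depth, with a median of 406 estimated WT reads for the 77 genes and 632 for all genes. At 5 FPKM or more, a level that 76 of the 77 reached, 20.2% of all genes were called lower and 22.6% higher. By size alone, 10 genes were at least 20% lower, where the share of all genes was 9.68%, and 1 was at least 25% higher, where the share of all genes was 13.3%. The deposited p-values follow from counting error between 2 pools of reads, with no room for variation among mice. Under an assumed coefficient of variation of 10% in each genotype, none of the 16 calls passed. That setting left only 0.727% of all genes called lower and 0.820% called higher, so the loss is not particular to this set.

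**Figure D2:**
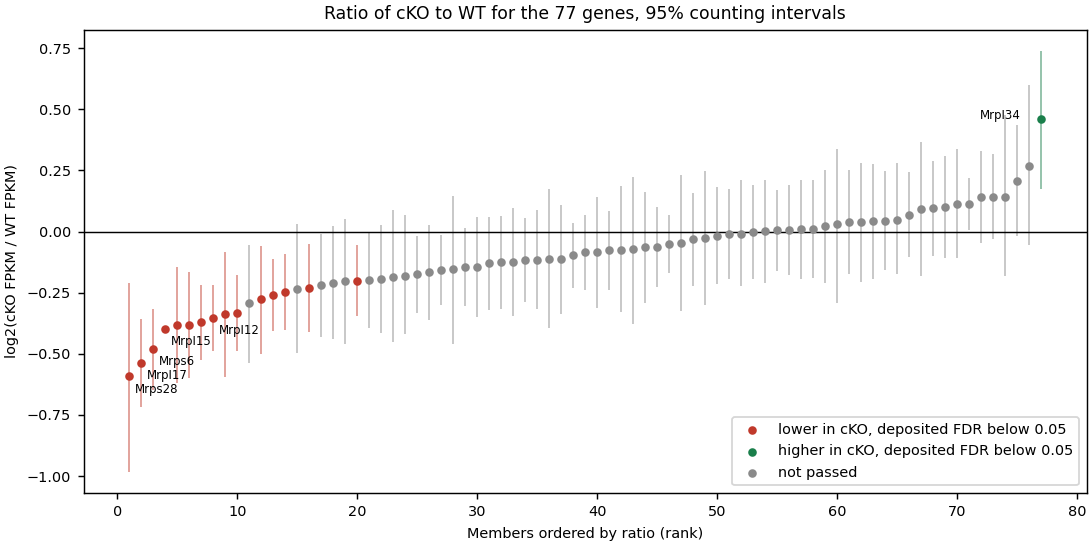
The log2 ratio of cKO to WT FPKM for the 77 genes, ordered from lowest to highest; bars are 95% intervals for counting error on estimated reads, not for the spread between mice, and Mrpl15 has none. The 15 genes in red were called lower and the 1 in green, Mrpl34, higher; 61 in grey did not pass.

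**Figure D3:**
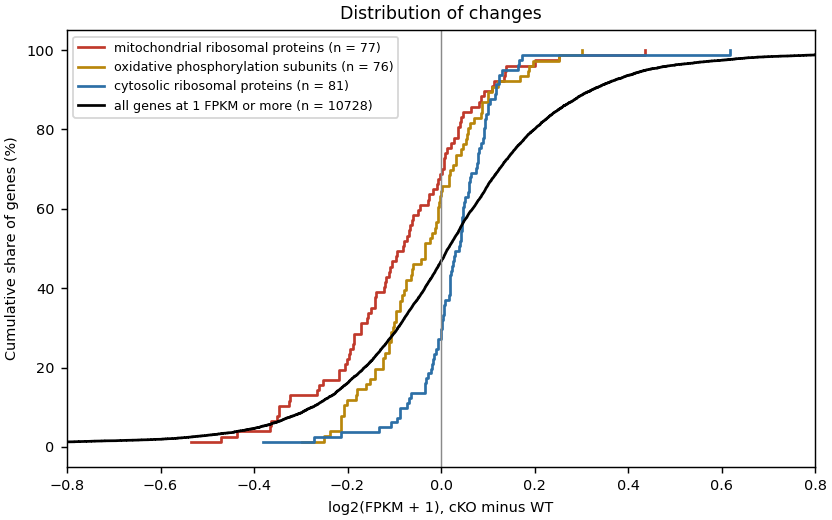
Cumulative share of genes against the change, log2(FPKM + 1) in cKO minus WT, for the mitochondrial ribosomal proteins, the oxidative phosphorylation subunits, the cytosolic ribosomal proteins and all 10728 genes. Medians are -0.08, -0.03, 0.04 and 0.02 in that order, and 68.8% of the mitochondrial ribosomal protein genes lie below 0, against 46.6% of all genes.

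Intervals given with single ratios are 95% exact binomial intervals on estimated reads and cover counting error alone. Each gene rested on an estimated 95 to 1491 reads in cKO and 144 to 1384 in WT. At this depth the interval lay below 1 for 19 genes, above 1 for 2 and across 1 for 55, and for Mrpl15 none could be given. For the 55, a difference was not detectable at this depth.

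Of all genes 16.9% were called lower and 19.9% higher. In the large subunit 8 of 48 Mrpl genes fell (16.7%), 1 rose (2.08%) and 39 did not pass. Their summed level was 1125 FPKM in cKO and 1178 FPKM in WT, and their median change -0.07. Mrpl17, which lines the rim of the exit tunnel, was at 3.62 FPKM in cKO and 5.25 FPKM in WT, a ratio of 0.690 (0.608 to 0.781) with an FDR of 3.83e-08 in the authors' deposited table. This is the lowest ratio of the Mrpl genes. Mrpl12, the stalk protein that recruits translation factors and has been described as a partner of mitochondrial RNA polymerase, was at 48.2 FPKM in cKO and 61.6 FPKM in WT. Its ratio was 0.783 (0.713 to 0.861), with an FDR of 3.03e-06 in the authors' deposited table, and it is the most abundant of the genes that fell.

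Mrpl21, a homologue of bacterial L21, was at 18.5 FPKM in cKO and 24.1 FPKM in WT, a ratio of 0.768 (0.660 to 0.891) with an FDR of 0.00279 in the authors' deposited table. Mrpl15, a homologue of bacterial L15, was at 10.4 FPKM in cKO and 13.7 FPKM in WT, with an FDR of 0.0181 in the authors' deposited table. For Mrpl15 the deposited p-value, 0.00374 in the authors' deposited table, is larger than the 1.03e-06 computed from its FPKM and length. Mrpl42, which has no bacterial counterpart, was at 20.5 FPKM in cKO and 25.9 FPKM in WT, a ratio of 0.792 (0.662 to 0.944) with an FDR of 0.0364 in the authors' deposited table. The other 3 Mrpl genes that fell were Mrpl3, a neighbour of the peptidyl transferase centre, at 26.1 FPKM in cKO and 31.3 FPKM in WT, Mrpl19 at 7.02 and 8.33 FPKM in cKO and WT, and Mrpl38 at 19.4 and 22.7 FPKM in cKO and WT. Their ratios were between 0.835 and 0.853.

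Mrpl34, a homologue of bacterial L34, was the only gene of the set called higher. It was at 22.6 FPKM in cKO and 16.5 FPKM in WT, a ratio of 1.37 (1.13 to 1.67) with an FDR of 0.00599 in the authors' deposited table. The other high ratios of the large subunit did not pass. Mrpl53, a stalk protein, was at 16.8 FPKM in cKO and 13.9 FPKM in WT, a ratio of 1.21 (0.962 to 1.52) with an FDR of 0.259 in the authors' deposited table. Mrpl14 was at 14.6 and 13.2 FPKM in cKO and WT, Mrpl27, which reaches towards the peptidyl transferase centre in bacteria, at 40.8 and 37.0 FPKM in cKO and WT, and Mrpl18 at 29.95 and 27.17 FPKM in cKO and WT. Mrpl49 was at 13.3 FPKM in cKO and 12.4 FPKM in WT, and Mrpl41 at 10.69 FPKM in cKO and 10.01 FPKM in WT. Mrpl24 had a ratio of 1.08 (1.01 to 1.17) and an FDR of 0.120 in the authors' deposited table.

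The same shares of all genes, 16.9% lower and 19.9% higher, apply to the small subunit. There 7 of 29 Mrps genes fell (24.1%), 0 rose and 22 did not pass. Their summed level was 637 FPKM in cKO and 696 FPKM in WT, and their median change was -0.12. Mrps28, the counterpart of bacterial S1, was at 7.67 FPKM in cKO and 11.6 FPKM in WT, the lowest ratio of the whole set at 0.663 (0.506 to 0.865), with an FDR of 0.00973 in the authors' deposited table. It rested on 95 estimated reads in cKO and 144 in WT, the fewest in cKO and, with Mrpl53, the fewest in WT. Mrps6, a homologue of bacterial S6, was at 38.0 FPKM in cKO and 53.1 FPKM in WT, a ratio of 0.716 (0.638 to 0.803) with an FDR of 1.08e-07 in the authors' deposited table.

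Mrps27, an RNA-binding protein with pentatricopeptide repeats, was at 8.15 FPKM in cKO and 10.6 FPKM in WT, a ratio of 0.767 (0.651 to 0.904) with an FDR of 0.00744 in the authors' deposited table. Mrps2, a homologue of bacterial S2, was at 17.0 FPKM in cKO and 22.0 FPKM in WT, a ratio of 0.774 (0.696 to 0.861) with an FDR of 1.92e-05 in the authors' deposited table. Mrps15 was at 19.2 FPKM in cKO and 23.3 FPKM in WT, and Mrps5, which lies near the entry of the messenger RNA, at 29.5 FPKM in cKO and 33.9 FPKM in WT. These 2 stood close to the threshold, at an FDR of 0.0490 for Mrps15 and 0.0272 for Mrps5 in the authors' deposited table. Just outside it, Mrps14 was at 7.54 FPKM in cKO and 9.24 FPKM in WT, with an FDR of 0.0623 in the authors' deposited table. Mrps16 was at 37.1 FPKM in cKO and 32.1 FPKM in WT, the highest ratio of the small subunit at 1.15 (0.987 to 1.35), and did not pass; Mrps34 was at 22.8 FPKM in cKO and 21.1 FPKM in WT.

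The 3 Mrps18 paralogs, all descended from bacterial S18, differ in where they sit. Mrps18b, a small subunit protein, fell, at 32.6 FPKM in cKO and 41.0 FPKM in WT, a ratio of 0.794 (0.712 to 0.885) with an FDR of 0.000207 in the authors' deposited table. Mrps18c, which holds the place of bacterial S18, was at 37.6 FPKM in cKO and 36.4 FPKM in WT, a ratio of 1.03 (0.886 to 1.21). Mrps18a, which sits in the large subunit in spite of its name, was at 27.9 FPKM in cKO and 27 FPKM in WT, a ratio of 1.03 (0.897 to 1.19). The interval of Mrps18b ends at 0.8850, next to the start of those of Mrps18c, at 0.8856, and Mrps18a, at 0.897. These intervals rest on estimated reads and leave out the spread between mice. Mrps18b shares 59.1% and Mrps18c 18.5% of its exon bases with other annotated genes. No test of the differences between the paralogs was run, so a difference between them is not shown.

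A further pair carries small subunit names but has another place. Mrps30, a large subunit protein, was at 22.1 FPKM in cKO and 24.5 FPKM in WT (FDR 0.203 in the authors' deposited table). Mrps36, which belongs to the 2-oxoglutarate dehydrogenase complex, was at 16.6 FPKM in cKO and 17.9 FPKM in WT (FDR 0.684 in the authors' deposited table). For a count by place, Mrps18a and Mrps30 were moved to the large subunit and Mrps36 was left out. Gadd45gip1 (large subunit) and Dap3, Ptcd3, Chchd1 and Aurkaip1 (small subunit) were added. By this count 8 of 51 large subunit genes (15.7%) and 8 of 30 small subunit genes (26.7%) fell, against 16.9% of all genes.

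Of the 48 genes with a bacterial homologue 12 fell and 1 rose, and of the 29 without one, Mrps36 among them, 3 fell and 0 rose. The median changes were -0.09 for the homologues and -0.07 for the others. Within the large subunit 6 of 30 homologues and 2 of 18 others fell, and within the small subunit 6 of 18 homologues and 1 of 11 others. The shares that fell were 25% of the homologues and 10.3% of the others, where 16.9% of all genes were called lower and 19.9% higher. Mrps28, the lowest ratio of the set, was placed among the homologues after the values had been seen. The difference between these classes was not tested. By level, 7 of 38 genes above the median (18.4%) and 8 of 39 at or below it (20.5%) fell.

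In each of 3 structural neighbourhoods of the large subunit a single gene passed. In the stalk, 1 of 5 genes fell (Mrpl12) and 4 lay below WT, with a summed level of 134 FPKM in cKO and 152 FPKM in WT. At the rim of the exit tunnel 1 of 6 genes fell (Mrpl17), and the summed level was 171 FPKM in both genotypes, of which Mrpl24 made up 92.2 FPKM in cKO and 85.2 FPKM in WT. In the central protuberance, which contacts the small subunit, 1 of 6 genes fell and 4 lay above WT. The gene that fell, Mrpl38, stood close to the threshold, at an FDR of 0.0477 in the authors' deposited table. These neighbourhoods were chosen after the values had been seen. The shares that fell were 20% in the stalk and 16.7% at the rim and in the protuberance. All of these are near the 16.9% of all genes called lower.

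Promoter windows of RefSeq (GRCm38.p6, from 250 bases before to 50 bases after the annotated start) were matched for 68 of the 77 genes. The 250 bases before the start are printed for 3 genes that fell and for Mrpl34, which rose, which are the pair with the smallest FDR among the genes that fell, the Mrps18 paralog that fell and the only gene called higher. Capitals mark matches to any of 5 short motifs on either strand, and positions are counted from the start, the base before it being -1. Mrpl17 is on the minus strand (chr7:105811088-105811337), Mrps6 on the plus strand (chr16:92058086-92058335), Mrps18b on the minus strand (chr17:35916441-35916690) and Mrpl34 on the plus strand (chr8:71464676-71464925), each written 5′ to 3′ along the gene.
Mrpl17: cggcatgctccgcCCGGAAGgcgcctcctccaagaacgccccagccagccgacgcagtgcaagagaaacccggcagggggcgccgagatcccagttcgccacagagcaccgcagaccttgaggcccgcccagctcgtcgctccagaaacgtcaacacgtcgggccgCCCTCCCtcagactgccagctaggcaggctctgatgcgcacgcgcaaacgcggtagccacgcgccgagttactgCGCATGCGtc
Mrps6: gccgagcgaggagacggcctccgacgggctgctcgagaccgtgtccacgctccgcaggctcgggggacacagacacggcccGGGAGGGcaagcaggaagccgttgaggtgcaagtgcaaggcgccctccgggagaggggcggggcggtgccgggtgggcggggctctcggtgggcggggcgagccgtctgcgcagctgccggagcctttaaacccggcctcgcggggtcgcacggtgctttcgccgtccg
Mrps18b: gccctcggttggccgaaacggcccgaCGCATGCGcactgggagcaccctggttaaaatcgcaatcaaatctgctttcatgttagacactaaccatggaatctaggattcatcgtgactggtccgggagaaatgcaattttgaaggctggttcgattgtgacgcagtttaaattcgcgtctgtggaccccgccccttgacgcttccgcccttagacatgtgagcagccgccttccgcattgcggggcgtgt
Mrpl34: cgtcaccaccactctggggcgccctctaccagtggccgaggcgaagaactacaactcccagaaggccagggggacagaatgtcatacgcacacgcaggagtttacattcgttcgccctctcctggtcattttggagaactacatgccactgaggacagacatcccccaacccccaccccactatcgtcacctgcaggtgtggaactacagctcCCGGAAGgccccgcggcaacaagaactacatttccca

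Mrpl17 holds the ETS motif at -237, the G-rich box on the other strand at -84 and, next to its start, the palindrome CGCATGCG, which matches the NRF1 core on both strands at -10 and -9. The same palindrome lies at -224 in Mrps18b, whose window also holds the NRF1 core at 29 and the ETS motif at 44 bases after the start, outside the printed stretch. Mrps6 holds the G-rich box at -169, and Mrpl34 the ETS motif at -37.

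A gene with several start sites, as 3 of the 68 have, was counted once if any of its windows held the motif. The ETS motif (CCGGAAG) is the sequence class bound by GABP, a regulator of mitochondrial genes. It was found in 25 of the 68 genes (36.8%). The shares were 22.9% of 8437 genes at 1 FPKM or more and 9.93% of all 27025 genes of the promoter table. The YY1 motif (AAGATGG) was found in 13 (19.1%), against 9.08% and 7.28% of the same genes, and the NRF1 core (GCATGCG) in 8 (11.8%), against 7.94% and 4.01%. The E-box (CACGTG), the site of Myc and its partners, was found in 5 (7.35%), against 12.4% and 8.09%. The G-rich box (GGGAGGG), a short sequence of the kind bound by Zfp281 and its relatives, was found in 15 (22.1%), against 30.2% and 23.8%. No motif contains another, both strands were searched, and the NRF1 core overlaps its own reverse complement in the palindrome. In all, 46 genes held at least 1 motif and 22 none.

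Among the 11 genes with a window that fell, 5 held the ETS motif, 2 the NRF1 core, 0 the E-box, 3 the G-rich box and 2 the YY1 motif. Among the other 57 the counts were 20, 6, 5, 12 and 11 in the same order. A match is a description of letters and shows neither binding nor its absence.

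**Figure D4:**
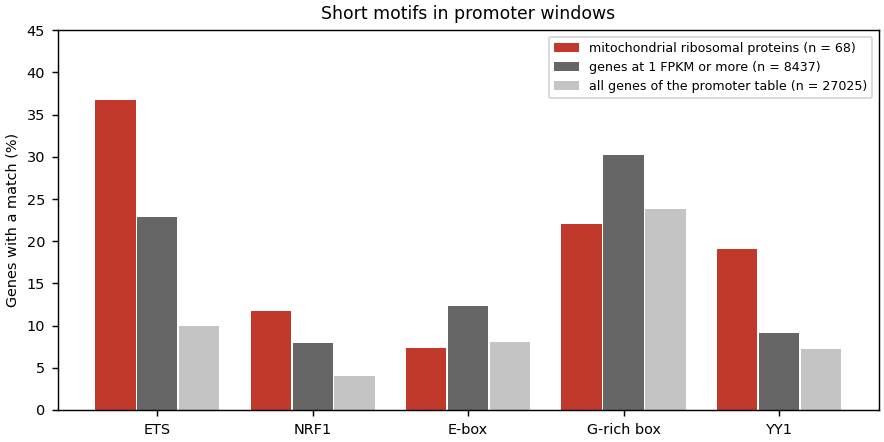
Share of genes (%) whose promoter window holds each of 5 short motifs, for 68 mitochondrial ribosomal protein genes, 8437 genes at 1 FPKM or more and 27025 genes of the promoter table. The ETS motif stands at 36.8% in the first group, against 22.9% and 9.93%, and the G-rich box at 22.1%, against 30.2% and 23.8%.

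Counts of some genes can include reads of a neighbour, since 25 of the 77 share exon bases with another annotated gene in GENCODE M21 (GRCm38). Whether reads were assigned by strand is not given in the sources used here, so reads of overlapping genes cannot be told apart. Of the 15 genes that fell, 9 share no base. Mrps6 shares 36.1% of its exon bases with Slc5a3 and Gm49711 together, both on the same strand. The transporter gene Slc5a3 also fell, at 17.0 FPKM in cKO and 22.4 FPKM in WT (FDR 1.83e-31 in the authors' deposited table). Mrps18b shares 59.1% with the antisense gene Gm16279, Mrpl19 39.2% with the antisense gene Gcfc2 and Mrps27 22.6% with 6430562O15Rik. Mrpl12 shares 15.2% with the antisense gene Gm16755 and Mrpl21 8.58% with the antisense gene Ighmbp2. Of the genes that did not pass, Mrpl53 shares 100% with Ccdc142os and Gm42688 together, the latter on the same strand. Mrpl24, the gene with the highest level, shares 38.2% with the antisense gene Rrnad1. Mrps25, at 4.58 FPKM in cKO and 4.61 FPKM in WT, shares 58.2% with Nr2c2, which rose. Only 1 pair of the set is closely linked: Mrpl46 and Mrps11 on chromosome 7 stand head to head 41 bases apart, at 14.1 and 13.8 FPKM in cKO and WT for Mrpl46 and 9.83 and 10.9 FPKM in cKO and WT for Mrps11, and neither passed.

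The calls in the lists of partners of the ribosome are likewise to be read against the 16.9% of all genes called lower and the 19.9% called higher. Of a list of 5 subunits without an Mrp symbol (Ptcd3, Chchd1, Dap3, Gadd45gip1 and Aurkaip1), 1 fell and 0 rose. It was Ptcd3, a small subunit protein with pentatricopeptide repeats, at 27.2 FPKM in cKO and 31.7 FPKM in WT (ratio 0.856, 0.793 to 0.925), with an FDR of 0.000502 in the authors' deposited table. Ict1 (Mrpl58), a peptidyl-tRNA hydrolase built into the large subunit and not counted in that list, was at 27.2 FPKM in cKO and 28.0 FPKM in WT and did not pass.

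Of 14 translation factors 3 fell (21.4%) and 0 rose, with a median change of -0.06. Lrpprc, which stabilises mitochondrial messenger RNAs, was at 16.6 FPKM in cKO and 21.8 FPKM in WT, Mrrf, the ribosome recycling factor, at 6.48 and 9.38 FPKM in cKO and WT, and the initiation factor gene Mtif2 at 11.8 and 14.3 FPKM in cKO and WT. Of 27 assembly factors 4 fell (14.8%) and 0 rose, with a median change of -0.08. C1qbp, a mitochondrial matrix protein needed for translation there, was at 80.6 FPKM in cKO and 105 FPKM in WT, Fastkd2, which binds the 16S ribosomal RNA, at 5.38 and 8.03 FPKM in cKO and WT, Trub2, a pseudouridine synthase family protein, at 7.71 and 9.38 FPKM in cKO and WT, and the GTPase gene Mtg1 at 5.32 and 7.24 FPKM in cKO and WT.

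Among 76 nuclear-encoded oxidative phosphorylation subunits, most of which belong to complexes with partners made by this ribosome, 8 fell (10.5%), 3 rose and 65 did not pass, with a median change of -0.03. Atp5g1, a subunit of the ATP synthase ring, was at 65.3 FPKM in cKO and 80.5 FPKM in WT, while Cox7a2l, a supercomplex factor, was at 195 FPKM in cKO and 173 FPKM in WT. Mitochondrially encoded genes were not analysed here. Of 81 cytosolic ribosomal proteins 35 rose (43.2%), 9 fell and 37 did not pass, with a median change of 0.04. Rplp1, of the cytosolic stalk, was at 4944 FPKM in cKO and 3223 FPKM in WT, while Rpl14 fell, at 417 FPKM in cKO and 484 FPKM in WT. No test between the lists was run.

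**Figure D5:**
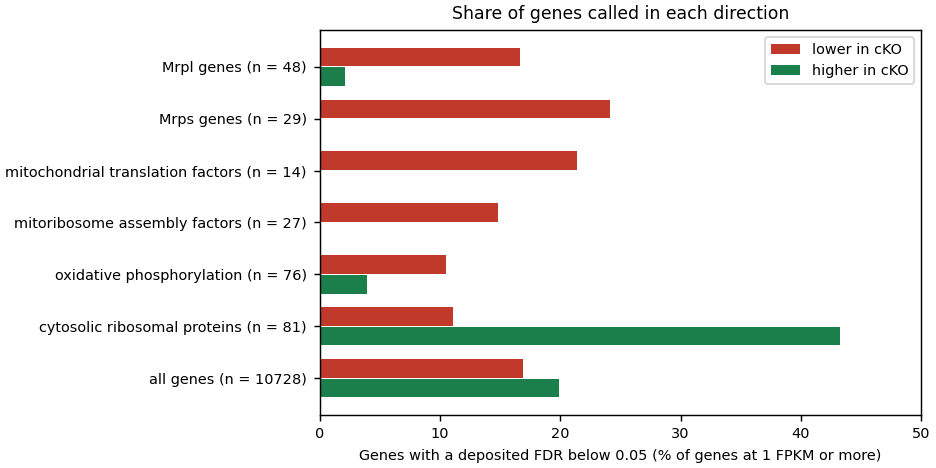
Share (%) of the genes of each list, among genes at 1 FPKM or more, with a deposited FDR below 0.05 and lower (red) or higher (green) in cKO than in WT. Mrpl and Mrps genes show 16.7% and 24.1% lower and 2.08% and 0 higher, against 16.9% and 19.9% for all genes.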

How the data were processed

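Per the labels' protocols, total RNA was read on a BGISEQ-500 instrument. Bowtie2 2.2.5 and the build mm10 are listed in the submitters' processing notes. Quantifier, annotation and differential test: not given in the sources used here. FPKM were deposited by the authors, with a single column for each genotype, and FPKM times length sums to the same total in both. Deposited log2 fold changes equal the log2 ratio of these columns. Each p-value was computed by the authors. Their deposited FDR is treated as a score because it reaches 1.03. The lowest value, 0.01 FPKM, was taken as 0.

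Calls used the authors' deposited FDR below 0.05 among genes at 1 FPKM or more in either genotype. The count model needs a value per library, so log2(FPKM + 1), which understates the change of low genes, was used without a test. Reads were estimated from the product of FPKM and gene length, after 36 bases were taken off the length, a value fitted with a depth ratio of 0.995 to the deposited p-values of 5326 genes; intervals are exact Clopper-Pearson intervals on these reads. Gene IDs found all 77 genes in RefSeq. Python 3.11.15, numpy 2.4.6, pandas 2.3.3, scipy 1.17.1 and matplotlib 3.10.9 were used. The read test was checked on simulated reads that varied by counting error alone, so the check does not cover the spread between mice.

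The genes and lists were chosen with earlier results of these data known. Named genes were the 10 lowest and 10 highest ratios at 5 FPKM or more, the 5 highest levels, any call against the main direction, genes with an unusual place, and up to 4 genes per other list with the smallest p-value. Mrps15, Mrpl3, Mrpl19, Mrpl38, Mrps5, Mrps14, Mrps25, Mrpl35, Mrpl46 and Mrps11 were named after their values were seen, the class of Mrps28 was moved to the bacterial homologues then, and the stalk, tunnel and protuberance groups were set then. With no value per library, the p-values carry no estimate of the spread between mice. The value of 1 gene of the marker lists is not reported here.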

Additional observations from a re-analysis of the deposited data

How the results depend on the processing

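No paired analysis was possible because the table holds 1 column per genotype, and for the same reason no library could be left out. The count of 15 genes that fell became 5 at an FDR below 0.001 (10.5% of all genes), 0 with an assumed coefficient of variation of 10% and 9 of 52 without the genes that share exon bases, an alternative added after seeing the data; the count of 1 that rose became 0 at an FDR below 0.001 (11.5% of all genes) and 0 with the assumed variation. The variation assumed left 0.727% of all genes called lower and 0.820% called higher. The 10 genes at least 20% lower became 30 at 1.1-fold (25.4% of all genes) and 1 at 1.5-fold (3.37%), and the 1 gene at least 25% higher became 6 at 1.1-fold (30.5%) and 0 at 1.5-fold (4.67%). The remaining 35 alternatives for counts, medians and sums kept their direction, with counts within 1.5 times the main ones. An FDR below 0.01 left 10 genes that fell, where 13.3% of all genes were called lower. A recomputed read test called 16, where the share of all genes was 18.8%. For the count without genes that share exon bases, no share of all genes was computed. Rescaling to the median of all genes kept the direction of each of the 27 single genes other than Mrpl52, which, at a log2 ratio of 0.01, came to -0.01. The median change stayed between -0.10 and -0.08. Depth limits the genes with the fewest reads, such as Mrps28, and the missing replicates limit every call.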

Other observations

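Of 7 genes for copying and transcribing mitochondrial DNA 2 rose (28.6%) and 1 fell (14.3%), where 19.9% of all genes were called higher and 16.9% lower. Polg, the catalytic subunit of the mitochondrial DNA polymerase, was at 49.6 FPKM in cKO and 39.98 FPKM in WT, a ratio of 1.24 (1.18 to 1.30) with an FDR of 3.37e-18 in the authors' deposited table. Its accessory subunit Polg2 was at 25.4 FPKM in cKO and 18.4 FPKM in WT, a ratio of 1.38 (1.22 to 1.56) with an FDR of 2.9e-06 in the authors' deposited table. Tfb2m, a mitochondrial transcription factor, was at 15.3 FPKM in cKO and 17.7 FPKM in WT and fell, while Tfam and Polrmt, the mitochondrial RNA polymerase, did not pass.

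Of 9 regulators of mitochondrial biogenesis 2 fell (22.2%) and 1 rose (11.1%). Pprc1, a coactivator of nuclear genes for mitochondrial proteins, was at 46.0 FPKM in cKO and 61.9 FPKM in WT, a ratio of 0.743 (0.714 to 0.774) with an FDR of 1.38e-46 in the authors' deposited table. Myc was at 121 FPKM in cKO and 140 FPKM in WT, with an FDR of 6.79e-13 in the authors' deposited table. Gabpb1, a subunit of the ETS factor GABP, was at 33.4 FPKM in cKO and 29.1 FPKM in WT and rose. Its DNA-binding partner Gabpa, at 20.4 FPKM in cKO and 20.9 FPKM in WT, did not pass, and neither did Nrf1 and Yy1.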
